A study of Mus musculus with 8 samples.

Results

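The miR-30 family is a set of 6 microRNA genes in the mouse, Mir30a, Mir30b, Mir30c-1, Mir30c-2, Mir30d and Mir30e, taken here by name from every table that lists them. They are 6 of 420 microRNA genes and of 10822 features named in at least 1 of the 5 tables. Small RNA of 19 to 33 nt was sequenced along the purification of the chromatoid body, a germ cell granule rich in RNA and protein, from testes of C57BL/6 mice of at least 6 weeks, in 8 libraries of 7 groups. The groups were the supernatant of the sonicated, formaldehyde-crosslinked lysate, a first and a second pellet, an immunoprecipitate (IP) of the pellet with an antibody to MVH (DDX4, a helicase of the chromatoid body), a control IP with an antibody to ACR (acrosin, a protease of the acrosome), sorted round spermatids, and the whole lysate. MVH IP had 2 libraries, given as 1 column, and the other groups 1 library each. The round spermatids are labelled hetMIWI, with no further genotype in the labels, and no other group carries a genotype label. The pellet column is tied by the labels to both pellet libraries. With 1 column a group no difference below has a replicate check. Errors and intervals cover the counting of reads only, and each comparison is between libraries, not conditions.

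A microRNA is cut from a hairpin precursor into an arm of about the length of these reads, which guides an Argonaute protein to messenger RNAs that pair with its seed, bases 2 to 8. Genes whose arms have the same seed can act on the same messenger RNAs. The miR-30 family is found in most tissues, and its genes lie in pairs. Round spermatids are haploid cells, and Argonaute proteins and microRNAs are known components of their chromatoid body.

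The sequences show which bases the members share, within the seed and beyond it. They are from RefSeq (GRCm38.p6), where 4 of the 6 members matched by symbol, and capitals mark the seed.
miR-30a-5p: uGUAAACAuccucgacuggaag
miR-30e-5p: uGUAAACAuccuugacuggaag
miR-30c-5p: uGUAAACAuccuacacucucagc
miR-384-5p: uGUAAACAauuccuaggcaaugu
miR-30c-1-3p: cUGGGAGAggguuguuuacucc
miR-30c-2-3p: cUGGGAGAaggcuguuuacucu

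The seed GUAAACA was held by 5 of 1738 mature entries, those of Mir30a, Mir30c-1, Mir30c-2, Mir30e and, outside the family, Mir384. Mir30b and Mir30d had no entry matched by symbol, so the search could not show whether they hold this seed. Counted from the 5′ end, miR-30e-5p differed from miR-30a-5p by C13U alone. Over the first 22 bases miR-30c-5p differed from miR-30a-5p by C13A, G14C, G18C, G19U and A20C. Mir30c-1 and Mir30c-2 give the same 5p arm, and their 3p arms differed by G9A, U12C and C22U. The rows of the tables are genes, so the values do not separate the 5p arm from the 3p arm.

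The 6 genes lie in pairs on 3 chromosomes. In mm9, the build of the files, Mir30a is at chromosome 1, 23279108 to 23279178, and Mir30c-2 at 23298540 to 23298623, with 19361 bases between them. Mir30b is at chromosome 15, 68168977 to 68169072, and Mir30d at 68172770 to 68172851, 3697 bases further. The files give Mir30c-1 and Mir30e only as part of a merged stretch of chromosome 4, 120430040 to 120504180. In GRCm38.p6 their hairpins are at 120769534 to 120769622 and 120772606 to 120772697, in an intron of Nfyc, a subunit gene of the transcription factor NF-Y, on the same strand (GENCODE M21). In that annotation Mir30b, Mir30c-2 and Mir30d overlap exons of non-coding transcripts on their own strand, and Mir30a overlaps no other gene.

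Levels are in FPKM, fragments scaled by library size and by a factor that falls with feature length, as deposited by the authors. In the lysate column of the supernatant table Mir30a had 149561 FPKM, Mir30d 92427.8, Mir30e 76415.8, Mir30b 57215.8, Mir30c-2 45120 and Mir30c-1 35273. The FPKM of neighbours in this order differed beyond counting error, but FPKM also carries the fixed factor of hairpin length. Mir30a ranked 34th and Mir30c-1 91st of the 386 microRNA genes listed there. Together the 6 genes made up 2.26% of the microRNA FPKM of the lysate.

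**Figure D1:**
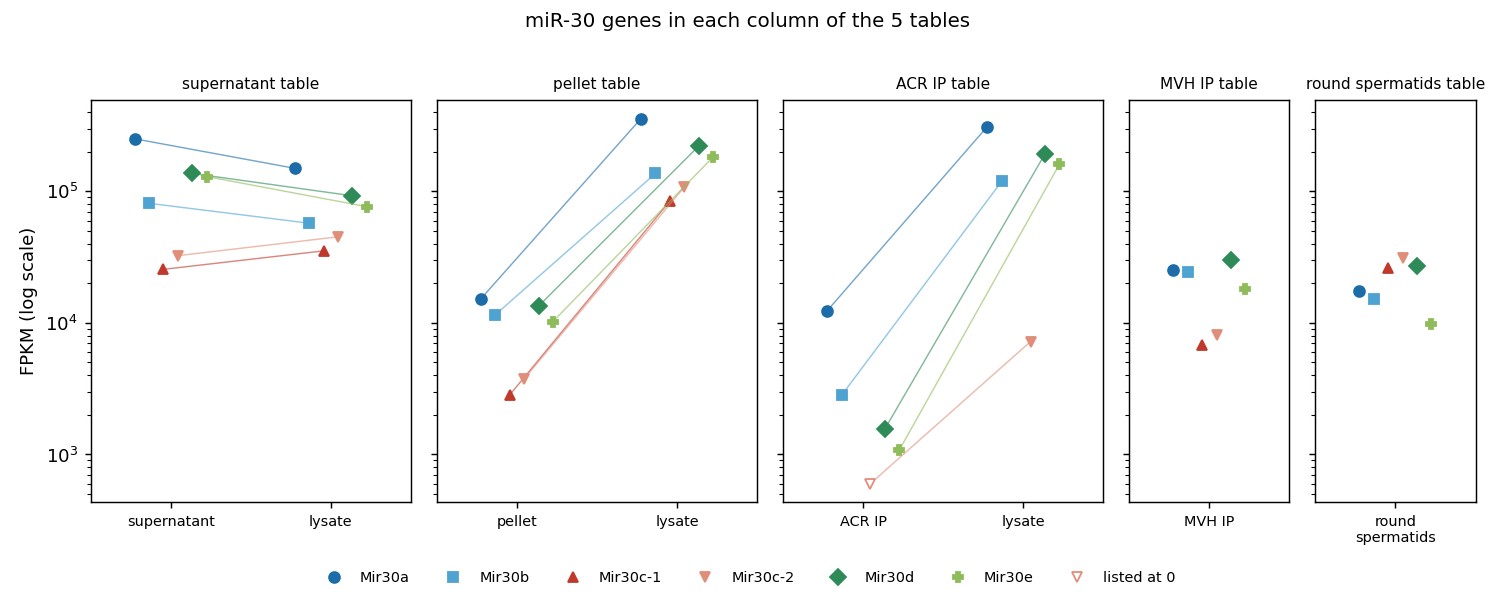
FPKM of each miR-30 gene (log axis) in every column of the 5 tables, 1 marker a gene, with lines joining a fraction to the lysate column of the same table. Both Mir30c copies lie below the other members in the supernatant, pellet and MVH IP, but among the highest in round spermatids; the open marker in the ACR IP is Mir30c-2, listed at 0.

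Depth could be read from the values, because those of microRNA genes of 1 length were multiples of a common step, taken as 1 read. In the ACR IP column all 51 values of up to 60 steps were whole within 0.02 of a step, against 21 for a step moved by 1%. The step at each length was set from the lowest ACR IP value of that length. The lowest gene of each length was therefore whole by construction, and the count of 51 is in part fixed in advance. By these steps the microRNA genes at loci of their own held 374442 reads in the supernatant, 24598 to 32913 in the pellet, 242 in the ACR IP, 3598 to 3654 in the MVH IP, 10622 in the round spermatids and 182581 in the lysate. The ranges arise because the pellet and MVH IP columns each held a pair of steps. Had 1 step been several reads, the read numbers would be larger, and had it been part of a read, smaller.

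The reads also show how far hairpin length sets the order of the members. A single lysate read of the supernatant table was worth 119 FPKM for Mir30a, with 71 bases, but 45.0 FPKM for Mir30b, with 96 bases. This fall was steeper than the ratio of the lengths, so FPKM was not scaled by plain length. Mir30e had 1479.0 lysate reads, Mir30b 1271.3, Mir30a 1262.0, Mir30d 1235.0, Mir30c-2 651.3 and Mir30c-1 613.3. Mir30a, the highest member by FPKM, and Mir30b, below Mir30e by FPKM, thus rested on nearly equal numbers of reads. By reads Mir30a and Mir30d did not differ beyond counting error (log2 difference 0.03, exact 95% interval -0.08 to 0.15), nor did Mir30c-2 and Mir30c-1 (0.09, -0.07 to 0.25).

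The Mir30c copies were not resolved from each other by these counts. In the supernatant, pellet and round spermatid tables some low values were fractions of a read, and in round spermatids each copy had 151.0 reads. In the ACR IP table, where alone the step could be divided to make values whole, every value of up to 60 reads was whole. There Mir30c-1 was not listed, and Mir30c-2 had 50.0 reads in the lysate, 7.68% of the 651.3 it had for the same library in the supernatant table. Mir30b had 1271 lysate reads in both. Values of the Mir30c copies are therefore uncertain as single genes.

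**Figure D2:**
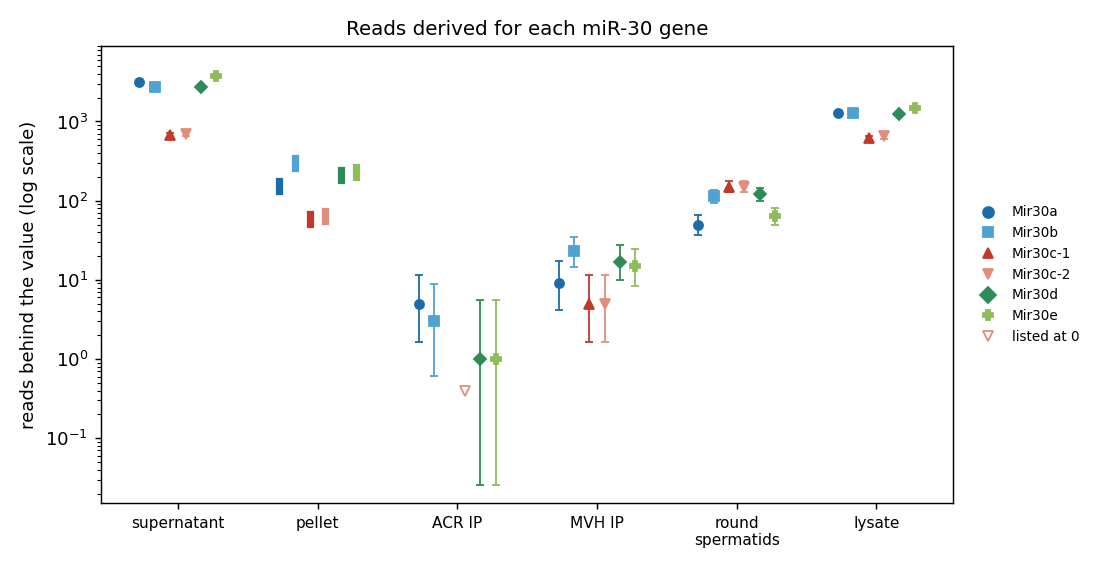
Reads derived for each miR-30 gene (log axis) in the supernatant, pellet, ACR IP, MVH IP, round spermatids and lysate (supernatant table); bars on markers are exact 95% Poisson intervals, and the thick pellet bars span the reads given by its pair of steps. Members rest on 665.5 to 3758.5 reads in the supernatant, 5 to 23 in the MVH IP and at most 5 in the ACR IP, against 613.3 to 1479.0 in the lysate.

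In the supernatant the members did not all differ from the lysate in the same direction. Mir30a, Mir30b, Mir30d and Mir30e were higher than in the lysate, and both Mir30c copies were lower. Mir30e had 129543 FPKM in the supernatant against 76415.8 in the lysate, which is 0.76 on the log2 scale (SE 0.043). Ratios are of FPKM + 1, and each SE is the counting error that follows from the test statistic in the authors' deposited table. Mir30a had 250809 FPKM in the supernatant against 149561 in the lysate, or 0.75 (SE 0.046). Mir30d had 136695 against 92427.8 FPKM, or 0.56 (SE 0.048), and Mir30b 81089.6 against 57215.8 FPKM, 0.50 (SE 0.048). Mir30c-1 had 25531.6 FPKM in the supernatant against 35273 in the lysate, a ratio of -0.47 in log2 (SE 0.081). Mir30c-2 had 32417.3 against 45120 FPKM, -0.48 (SE 0.079).

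The gap between the Mir30c copies and the other members was wider than counting error in each pairing. The smallest was Mir30c-1 minus Mir30b, a difference of log2 ratios of -0.97 (95% interval -1.15 to -0.78), and the largest Mir30c-2 minus Mir30e, -1.24 (-1.41 to -1.06). Mir30a and Mir30e, which differ by 1 base in the 5p arm, were 0.02 apart (interval of Mir30e minus Mir30a, -0.11 to 0.14). Mir30b was below Mir30a by an interval that left out 0, with a difference of -0.24 (-0.37 to -0.11).

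Set against other microRNA genes, the shifts in the supernatant were of common size. None of the 6 members was 2-fold higher or lower, where 7.16% of all 4999 features were 2-fold higher and 5.42% lower; of microRNA genes 15.5% were higher and 12.7% lower. The median log2 ratio was 0.53 over the family, 0.21 over 386 microRNA genes (quartiles -0.36 and 0.74) and 0.02 over all features. Mir30e stood at percentile 76.4 of the microRNA genes and Mir30c-2 at percentile 22.5. In the authors' deposited table Mir30a, Mir30b, Mir30d and Mir30e were called higher, a call that 0.96% of all features and 10.9% of microRNA genes had. The authors' deposited table gave Mir30c-1 a q-value of 2.5e-07 and Mir30c-2 one of 4.3e-08 and called neither; every feature called there had a q-value listed as 0. A q-value below 0.05 with a lower value was found for 4.9% of all features and 9.33% of microRNA genes of the authors' deposited table.

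As a share of all microRNA FPKM the family hardly moved, with 2.39% in the supernatant and 2.26% in the lysate. Its make-up did: miR-30c genes were 9.95% of the family's reads in the supernatant (exact binomial 95% interval 9.46 to 10.5) and 19.4% in the lysate (18.5 to 20.4). In the pellet, with reads at the middle of their range, they were 12% (10.1 to 14.1), also below the lysate. With both fractions below the lysate, these values show no shift of miR-30c from the supernatant to the pellet.

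**Figure D3:**
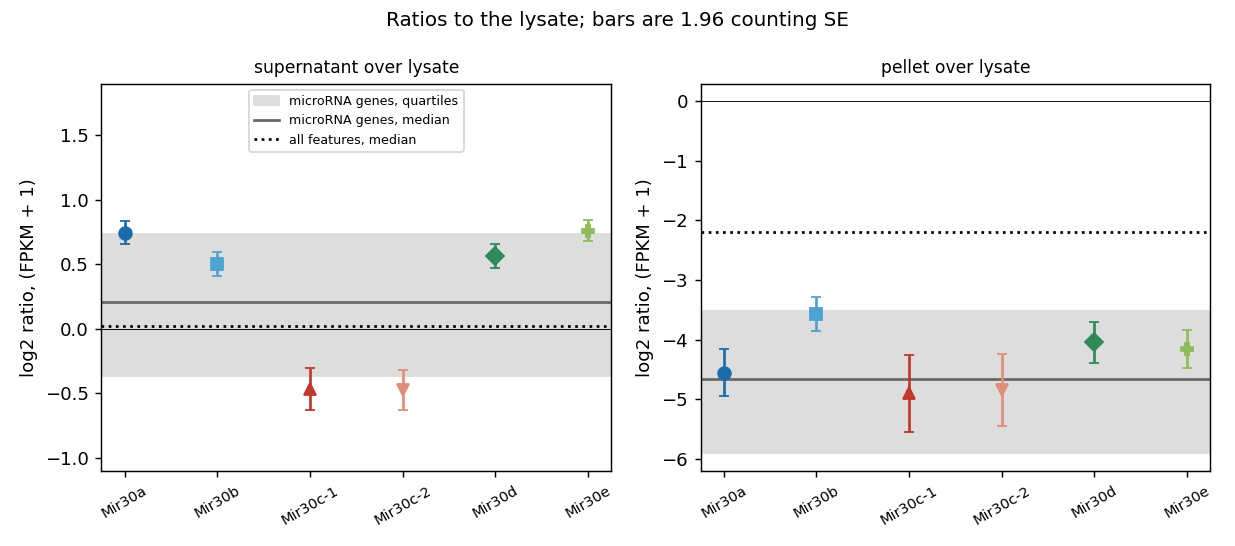
Log2 ratio to the lysate of each miR-30 gene in the supernatant (left) and the pellet (right), with bars of 95% counting intervals; the grey band spans the quartiles of all microRNA genes, the solid line is their median and the dotted line the median of all features. In the supernatant the Mir30c copies lie at -0.47 and -0.48 and the other members at 0.50 to 0.76; in the pellet all 6 lie between -4.89 and -3.57.

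In the pellet, the input of both IPs, all 6 genes were far below the lysate. So were most features: 86.5% of all 3005 features and 93.4% of 363 microRNA genes were at least 2-fold lower. The family's median log2 ratio was -4.35, against -4.65 over microRNA genes (quartiles -5.90 and -3.52) and -2.20 over all features. Centred on all features the family's median was -2.16, and centred on microRNA genes 0.30. In the authors' deposited table all 6 members were called lower, as were 18.7% of all features and 34.7% of microRNA genes.

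Mir30b kept the largest part of its lysate value, with 11516.9 FPKM in the pellet against 136765 in the lysate, or -3.57 in log2 (SE 0.15). Mir30d, its neighbour on chromosome 15, had 13393.7 against 220933 FPKM, -4.04 (SE 0.17). Mir30e had 10238.2 against 182659 FPKM, -4.16 (SE 0.16), and Mir30a 15238 against 357499 FPKM, -4.55 (SE 0.20). The Mir30c copies had the lowest ratios, Mir30c-2 with 3751.51 FPKM in the pellet against 107852 in the lysate, -4.85 (SE 0.31), and Mir30c-1 with 2832.83 against 84314.1 FPKM, -4.89 (SE 0.33).

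Counting error covered several of these gaps. Mir30b was above Mir30a by 0.98 (95% interval 0.49 to 1.47) above Mir30e by 0.59 (0.15 to 1.02) and above Mir30d by 0.47 (0.03 to 0.92). Mir30c-1 was below Mir30b by an interval that left out 0, with a difference of -1.33 (-2.03 to -0.62), whereas Mir30c-1 minus Mir30a was -0.34 (-1.1 to 0.41). Mir30e minus Mir30d was -0.11 (-0.58 to 0.36). By FPKM, Mir30a, Mir30d, Mir30b and Mir30e did not differ from their neighbours in order beyond counting error, and the Mir30c copies lay below them. By reads, taken at the low end of their range, Mir30a was below Mir30d (log2 difference -0.47, -0.81 to -0.14). Mir30d was below Mir30b by reads (-0.51, -0.80 to -0.24), and Mir30b above Mir30e (0.37, 0.10 to 0.64). MiR-30c genes were 12% of the family's reads in the pellet (10.1 to 14.1), against 19.4% in the lysate, with pellet reads at the middle of their range. The SE from the authors' test statistic were wider in the pellet than counting of these reads would give, for a reason not tested. Pellet reads may thus be overstated and intervals from them too narrow. The family was 2.10% of the microRNA FPKM in the pellet and 2.26% in the lysate.

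The ACR IP, the control for the antibody, was too shallow to describe the family. Mir30a had 12338.6 FPKM, 5 reads, against 310440 FPKM in the lysate, -4.65 in log2 (exact 95% interval from reads -6.28 to -3.43). Mir30b had 2811.36 FPKM, 3 reads, against 119108 FPKM, -5.40 (-7.68 to -3.85). Mir30d had 1558.38 FPKM, 1 read, against 192304 FPKM, -6.95 (-12.3 to -4.47). Mir30e had 1075.85 FPKM, 1 read, against 160195 FPKM, -7.22 (-12.5 to -4.74). Mir30c-2 was listed at 0 against 7212.3 FPKM in the lysate, at least 1.67-fold lower when 3 reads in the ACR IP column are taken as the limit of a count of 0. The exact 95% interval from reads, as used for the other members, had an upper limit of -0.39 in log2, a smaller drop.

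All 5 listed members were at least 2-fold lower in the ACR IP, or at 0, as were 97.6% of 292 microRNA genes and 59% of 2539 features; 75.3% of the microRNA genes were at 0. The family's median log2 ratio was -6.95, and -5.40 with Mir30c-2 at its bound. The whole family rested on 10 reads in this column, and the order of its members there was not readable: even the FPKM of Mir30a over that of Mir30b, 2.13 on the log2 scale, had an exact interval of -0.23 to 4.82.

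The MVH IP, the purified chromatoid body, held all 6 members at a small number of reads. Mir30d had 29845.4 FPKM (17 reads), Mir30a 25030.4 (9 reads), Mir30b 24262.5 (23 reads) and Mir30e 18237.2 (15 reads). Mir30c-2 had 8133.92 FPKM and Mir30c-1 6752.74 FPKM, with 5 reads each. The FPKM of no neighbours in this order differed beyond counting error. By reads, Mir30a was below Mir30b (log2 difference -1.35, -2.65 to -0.19) and Mir30e above Mir30c-2 (1.58, 0.05 to 3.40). The other neighbours had read intervals that reached 0. The ranks among 217 microRNA genes ran from 66 for Mir30d to 141 for Mir30c-1, against 34 for Mir30a and 91 for Mir30c-1 among 386 in the lysate.

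The table of the MVH IP has no lysate column and was normalized on its own, so levels were set across tables as shares of the FPKM of the 191 microRNA genes that both tables list. The family was 1.27% of that sum in the MVH IP and 2.30% in the lysate. Mir30a had 0.284% in the MVH IP against 0.756% in the lysate, which is -1.41 as a log2 ratio of shares (95% interval from reads -2.55 to -0.48). Mir30c-2 had 0.0922% against 0.228%, -1.31 (-2.93 to -0.08), and Mir30e 0.207% against 0.386%, -0.90 (-1.74 to -0.17). The intervals of the other members reached 0: Mir30c-1 had -1.22 (-2.85 to 0.01), Mir30d -0.46 (-1.25 to 0.22) and Mir30b -0.07 (-0.73 to 0.52). All 6 ratios were below 0, as were those of 99 of the 183 microRNA genes above 0 in both. The Mir30c copies among the 6 were not resolved from each other. The family's median was -1.06, beside -0.18 over those 183 genes (quartiles -0.89 and 0.93). Mir30a, Mir30c-1 and Mir30c-2 were 2-fold lower in share, as were 22.4% of those genes.

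Beside the control IP and the input the family's share in the MVH IP was also the smaller one. Over the 161 microRNA genes listed for both IPs, the 5 members held 1.28% in the MVH IP and 3.37% in the ACR IP, where they rested on 10 reads. Shared reads may also be counted unlike in these tables, since Mir30c-2 kept 7.68% of its lysate reads in the ACR IP table. Over 191 genes the 6 members held 1.27% in the MVH IP and 2.13% in the pellet. Over 170 genes they held 1.29% in the MVH IP and 2.93% in round spermatids.

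In sorted round spermatids the order of the family was another. Mir30c-2 had the highest FPKM with 31252.4 FPKM (151.0 reads), followed by Mir30d with 26832.3 (120.0 reads) and Mir30c-1 with 25945.6 (151.0 reads). Mir30a had 17526.9 FPKM (49.5 reads), Mir30b 15194.1 (113.0 reads) and Mir30e 9879.51 (64.0 reads). By FPKM neither Mir30c-2 and Mir30d nor Mir30d and Mir30c-1 differed beyond counting error, nor did Mir30a and Mir30b, while Mir30c-1 was above Mir30a and Mir30b above Mir30e. By reads, Mir30a was below Mir30b (log2 difference -1.18, -1.69 to -0.68). The lead of Mir30c-2 over Mir30c-1, 1.20 times by FPKM, is that of the length factor in FPKM alone, since both had the same reads.

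As a share of the FPKM of the 254 microRNA genes of both tables, which were normalized separately, the family was 2.86% in round spermatids and 2.28% in the lysate. Mir30c-1 had 0.586% in round spermatids against 0.177% in the lysate, which is 1.73 as a log2 ratio of shares (95% interval from reads 1.46 to 1.99). Mir30c-2 had 0.706% against 0.226%, 1.64 (1.38 to 1.9). Both Mir30c copies were 2-fold higher, as were 27.1% of 236 microRNA genes above 0 in both. With 151.0 reads each they were not resolved from each other, so their ratios are not independent. Mir30d had 0.39 (0.11 to 0.66) and Mir30b 0.26 (-0.03 to 0.54), whereas Mir30a had -0.92 (-1.36 to -0.51) and Mir30e -0.78 (-1.16 to -0.42). Without the Mir30c copies the family's median was -0.26, against 0.33 with them.

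Within the family, miR-30c genes were 46.6% of the reads in round spermatids (42.6 to 50.5), 13.5% in the MVH IP (6.68 to 23.5) and 19.4% in the lysate (18.5 to 20.4). This make-up is a ratio within 1 column, so scaling of columns leaves it as it is, but it depends on how reads shared between loci were counted. For the lysate it was 19.4% in the supernatant table and 0.943% in the ACR IP table, where Mir30c-1 was not listed. Low values were whole reads for 73.3% of genes in round spermatids and 77.2% in the lysate of the supernatant table, but for 100% in the ACR IP table. These percentages come from unlike rules, since the step could be divided in the ACR IP table but was the commonest low value elsewhere. For the MVH IP, with its pair of steps, no such share was computed. The summed FPKM of the Mir30c copies was 3.26 times that of Mir30a in round spermatids, 0.595 times in the MVH IP, 0.231 times in the supernatant, 0.432 times in the pellet and 0.538 times in the lysate. In bulk samples, fewer cells of a type and less RNA per cell cannot be told apart.

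**Figure D4:**
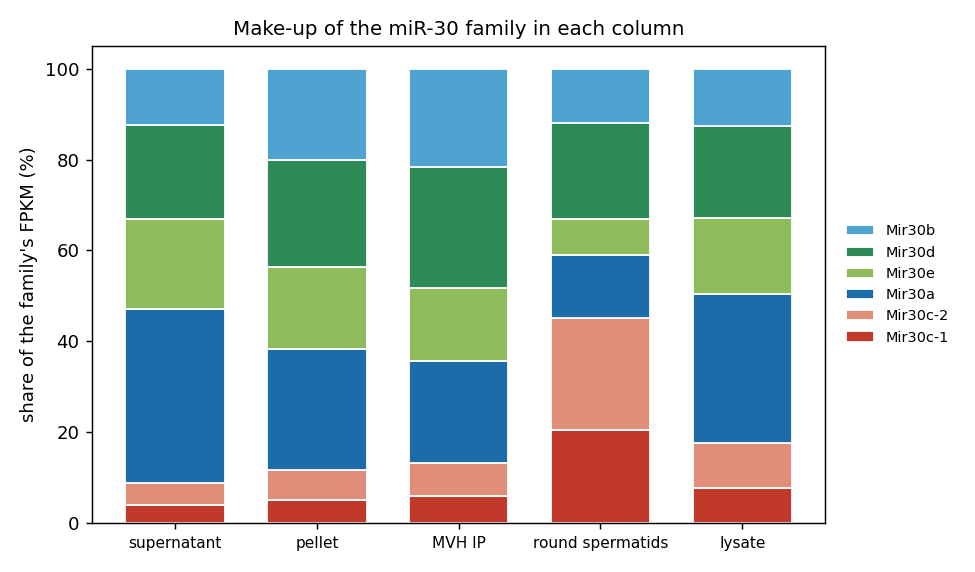
Share of the family's FPKM (%) taken by each miR-30 gene in the supernatant, pellet, MVH IP, round spermatids and lysate (supernatant table). The red segments, the Mir30c copies, make up 45.2% in round spermatids, 13.3% in the MVH IP, 8.83% in the supernatant, 11.6% in the pellet and 17.6% in the lysate.

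The shares of microRNAs of other cell types also differed between some of these columns. Of 9 microRNAs of other cells (Sertoli, red cell, vessel wall, leukocyte and liver), 7 were listed in each table. They held 5.15% of the microRNA FPKM in the supernatant, 2.55% in the pellet, 12.1% in the ACR IP, 2.23% in the MVH IP, 1.62% in round spermatids and 5.16% in the lysate. The ACR IP share comes from a column with 242 reads on microRNA genes at loci of their own. The red cell microRNA Mir144 was at 0 in round spermatids and the ACR IP, and the leukocyte microRNA Mir142 at 0 in the ACR IP. The germ cell microRNAs Mir34b, Mir34c and Mir449a were above 0 in every column and held 5.83% in round spermatids, 29.5% in the MVH IP and 24.7% in the lysate. The part of these shifts in the values of the miR-30 genes was not tested.

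The let-7 family and the germ cell family of miR-34 and miR-449 were set beside miR-30. In the supernatant the median log2 ratio was 0.53 for miR-30, 0.52 for let-7 and 0.67 for miR-34 and miR-449. All 12 let-7 genes were above the lysate there, as were 4 of 6 miR-30 genes and 62.4% of microRNA genes. In the pellet the median was -4.35 for miR-30, -5.46 for let-7 and -3.94 for the 6 genes of the miR-34 and miR-449 family. In the MVH IP the median log2 ratio of shares was -1.06 for miR-30, -0.35 for let-7 and 0.02 for the 5 measured genes of miR-34 and miR-449. In round spermatids the median log2 ratio of shares was 0.33 for miR-30, -0.42 for let-7 and -3.0 for the 4 measured genes of miR-34 and miR-449. These differences were not tested.

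The genes with a profile most like the family's median were taken over 4 ratios to the lysate (supernatant, pellet, MVH IP and round spermatids) among 157 other microRNA genes above 0 throughout. They were Mir16-1 and Mir16-2, each with a root mean square difference of 0.35 on the log2 scale, Mir741 (0.38), Mirlet7a-2 (0.45) and Mir881 (0.49), where the median gene differed by 1.42. Mir16-1 and Mir16-2 had nearly equal values in all 4 ratios, and whether their reads were resolved from each other was not tested. Of the members themselves Mir30d lay nearest to the family's median profile (0.34) and Mir30c-1 farthest (0.91), with 42 other microRNA genes nearer than it.

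Small RNA on genes of the microRNA pathway was sparse, and such reads are no measure of their messenger RNA. Of 13 genes 4 were listed in any table: Dgcr8, which binds the hairpin for cutting by Drosha, Tarbp2, a partner of Dicer, and the Argonaute genes Ago2 and Ago4. In the supernatant none of the 4 was 2-fold higher or lower, against the 7.16% and 5.42% of all features above. Ago2 had 43.3 FPKM in the supernatant against 40.6 in the lysate, or 0.09 in log2 (SE 0.040). In the pellet 3 of the list were listed, and 2 of these were at least 2-fold lower, against the 86.5% of all features above. Ago2 had 22.3 FPKM in the pellet against 97 FPKM in the lysate, -2.07 (SE 0.082), close to the median of all features, and Dgcr8 0.631 against 7.77 FPKM, -2.43 (SE 0.52). Ago4 had 3.0 FPKM in the pellet against 2.61 in the lysate, 0.15 (SE 0.29). Ago2 was at 56.1 FPKM in the MVH IP and 40.3 in round spermatids. In the shallow ACR IP column Ago2 was listed at 0 against 66.5 in the lysate, and 1046 of 2539 features were at 0 there. Mir384, the gene outside the family with its seed, was listed only in the supernatant table, at 39.8 FPKM in the supernatant, which is 1 read, and at 0 in the lysate. The authors' deposited table gave it a q-value of 0.47 and no call. Nfyc was listed in no table.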

How the data were processed

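The members, gene lists and rules were chosen with earlier results of these data known. Per the submitters' processing notes the authors used TopHat, Cuffdiff and mm9; their roles and versions, the annotation and how reads matching more than 1 locus were counted are not given in the sources used here. Deposited by the authors were 5 tables of FPKM, named so per the file headers for round spermatids and otherwise by Cuffdiff's column names, with p-values, q-values and a test statistic (a score) in the supernatant and pellet tables. Of the deposited value columns 1, long RNA of the MVH IP, belongs to no sample here and was not used.

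Log2 ratios of (FPKM + 1) were taken within a table where a feature reached 1 FPKM in the fraction or the lysate, so low features are understated. The counting SE was the log2 ratio over the authors' test statistic. MVH IP rows of 1 symbol and locus were summed. The value of 1 read was found for genes at loci of at most 140 bases from ACR IP values of the same length; 95% intervals were exact Poisson, exact conditional binomial (ratios) or 1.96 SE. Hairpin length of Mir30c-1 and Mir30e came from RefSeq. The step search was tested on simulated data. Software was scipy 1.17.1, pandas 2.3.3 and numpy 2.4.6 in Python 3.11.15, with figures from matplotlib 3.10.9. Named genes beyond the members were the 5 nearest profiles and the fixed lists. Alternatives changed the pseudocount, filter, scaling, lysate column and the handling of the Mir30c copies.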

Additional observations from a re-analysis of the deposited data

How the results depend on the processing

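No paired analysis was possible because each comparison has 1 column a group, which also allows no replicate to be left out. Pseudocounts of 0.1 and 10 and no filter moved no family median beyond its counting interval. Scaling did. In the supernatant the family's median log2 ratio of 0.53 was 0.33 after centring on microRNA genes, 0.0891 as a ratio of shares of the microRNA FPKM and 0.66 without the Mir30c copies, an alternative chosen after seeing the data. In the pellet, -4.35 became -2.16 after centring on all features, 0.30 after centring on microRNA genes, a change of sign, and -0.20 as a ratio of shares. In the ACR IP, -6.95 became 3.46 after centring on microRNA genes, whose median there is set by genes at 0, and -1.03 as a ratio of shares. The family's share of the microRNA FPKM was 1.4% in the MVH IP, in place of 1.07%, and 3.52% in round spermatids, in place of 2.86%, when the highest microRNA gene was left out. Of the ratios across tables, that of the MVH IP was -1.06 by shares and -2.23 by FPKM as deposited. That of round spermatids was 0.33 by shares, -1.85 by FPKM as deposited, 0.87 after centring on microRNA genes and -0.26 without the Mir30c copies. The causes were not tested. Depth limits the ACR IP most, with 10 reads on the family, and then the MVH IP, with 74.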

Other observations

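The steps of the low values differed between columns. Low pellet values of microRNA genes fell on sums of a pair of steps, 0.0353 and 0.0473 of an ACR IP read, for 28 of 32 values, against 19 when the second step was moved by 1%; that step was chosen by search as the one with most values on it. Values within 0.0015 of the first step counted as on a sum. Low MVH IP values did so for steps of 1.13 and 1.12 in 39 of 47 values, against 4. In the lysate 77.2% of low values were whole reads in the supernatant table and 100% in the ACR IP table.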
